A study of Mus musculus with 7 samples.

Results

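Fatty liver is a liver whose hepatocytes are filled with lipid droplets, and 10 genes whose proteins coat, enlarge or empty those droplets were followed here in obese mice with and without bitter melon juice. They are the perilipins Plin2, Plin3, Plin4 and Plin5, the CIDE genes Cidea, Cideb and Cidec, the lipase gene Pnpla2 with its inhibitor G0s2, and the droplet enzyme Hsd17b13. They were chosen by name for these roles and make up 10 of the 33426 Ensembl gene IDs measured on each array. All 10 were bright enough to be tested, with mean log2 values of 5.34 to 9.06, and 20055 IDs were tested in all.

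Liver RNA came from 7 male wild-type mice of the inbred, obesity-prone strain C57BL/6J. A high-fat diet (60 kcal% fat) given between the ages of 4 and 16 weeks made them obese (diet-induced obesity, DIO), and they ate it for 40 days more. The DIO group (3 mice) received the diet alone. The BMJ + DIO group (4 mice) was also gavaged each day of those 40 days with freeze-dried bitter melon (Momordica charantia) juice, BMJ, at a daily dose of 200 mg/kg. The age in the labels is 16 weeks for every mouse, which does not count these 40 days. No lean mice were analysed here and no gavage is described for the DIO group, so the juice and the handling that went with it cannot be told apart. Each mouse gave 1 array, and the number of arrays limits the precision of every value below.

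A lipid droplet has a core of triglyceride and sterol ester inside a single layer of phospholipid. Perilipins cover this surface and control access of lipases to the core, CIDE proteins sit where droplets touch and pass lipid from the smaller droplet to the larger, and adipose triglyceride lipase, the product of Pnpla2, takes the first fatty acid off a triglyceride. In mouse liver several of these genes respond to the nuclear receptors PPAR alpha and PPAR gamma, and Cidea and Cidec, which are best known from adipose tissue, come on in fatty liver.

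No difference between the groups in these 10 genes passed a test. In limma's moderated test 0 of the 10 passed a Benjamini-Hochberg adjusted p of 0.05, as did 0.0% of all 20055 IDs. The members' adjusted p ran from 0.571 to 0.968. The 0.571, shared by G0s2, Plin5 and Pnpla2, was also the lowest adjusted p of all IDs tested. The adjustment gave that same value to every ID with a lower unadjusted p, the 1285 IDs under 0.05 included. The unadjusted p of the 3 genes were 0.0706, 0.147 and 0.164 (limma), so they were not among the lowest. At an unadjusted p under 0.05 the count was also 0 of 10, against 6.41% of all IDs tested. By an exact permutation test of each gene it was again 0 of 10, with no share of all IDs computed beside it. With 35 divisions of the mice the smallest possible permutation p is 0.0286, and 2 divisions as extreme already give 0.0571, so that test could hardly pass a gene. In 0 of 10 genes did the groups separate without overlap on the deposited values, against 3.52% of all IDs tested.

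DIO replicate 3 stood apart before any gene was compared. Its mean correlation with the other 6 arrays across the tested IDs was 0.924, while each other array lay between 0.964 and 0.969. It read low for bright IDs in general. Over the 6624 tested IDs that averaged at least 5 on the log2 scale, its mean deviation from the 7-array median was -0.47 on the log2 scale, against -0.13 to 0.11 on the other arrays. All 10 lipid droplet genes lie in that brightness range. DIO replicate 3 was the lowest array for 9 of the 10, and the sole lowest for 75.0% of the 6624 IDs and 42.0% of all IDs tested. Values in single animals are the deposited ones unless cyclic loess is named, a normalization that evens out differences between arrays that follow brightness. Each group difference below is also given without this array or after cyclic loess.

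**Figure D1:**
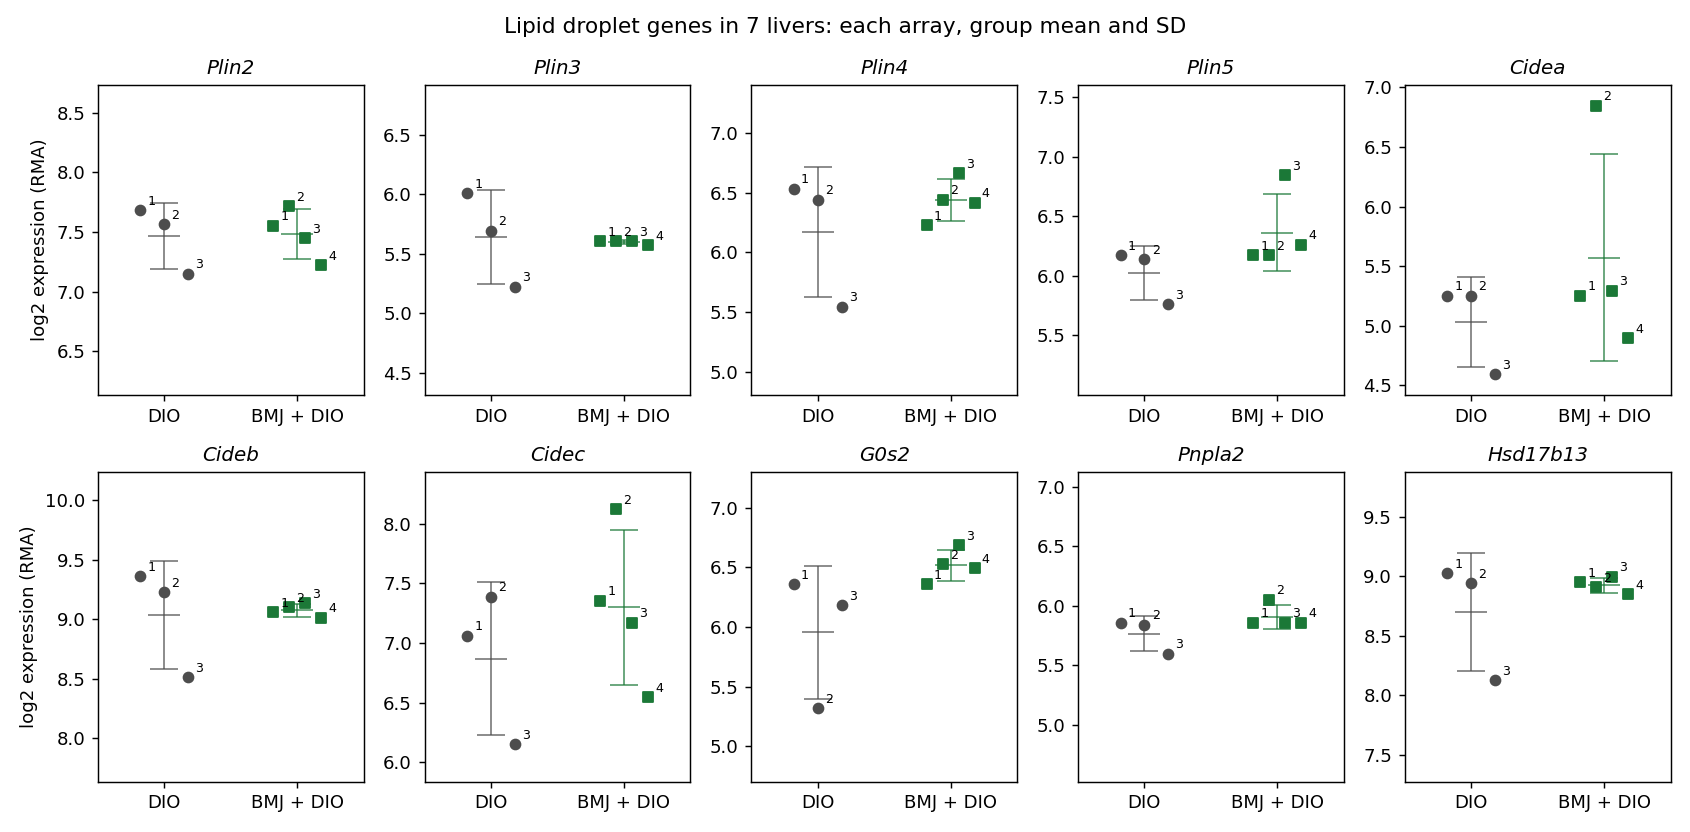
Log2 expression (RMA, vertical axis, the same span of log2 units in every panel) of each lipid droplet gene in each liver, by group (horizontal axis). Points are single arrays with their replicate numbers (circles, DIO, n = 3; squares, BMJ + DIO, n = 4) and bars are the group mean and SD. The groups overlap for all 10 genes, and DIO replicate 3 is the lowest point for every gene but G0s2.

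Plin2 (ENSMUSG00000028494, chr4:86626910-86670217, GRCm38.p6 as for all positions below), the perilipin that covers most droplets of fat-laden hepatocytes and is degraded when not bound to lipid, had group means 0.02 log2 units apart. Its log2 values were 7.68, 7.56 and 7.15 in DIO replicates 1 to 3 and 7.55, 7.72, 7.45 and 7.22 in BMJ + DIO replicates 1 to 4. The group means were 7.47 ± 0.28 (SD, n = 3) and 7.49 ± 0.21 (SD, n = 4). The treated livers spanned almost the same range as the untreated ones, with one animal low in each group. The difference of 0.02 on the log2 scale (BMJ + DIO minus DIO, standard error 0.17) corresponds to 1.01-fold, with a 95% interval from 0.761-fold to 1.35-fold (limma, adjusted p = 0.968). The direction was not stable, since the difference was -0.14 without DIO replicate 3 and -0.22 after cyclic loess. In bulk liver RNA, fewer cells that express a gene and less RNA per cell cannot be told apart, here and for every gene below.

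Plin3 (ENSMUSG00000024197) binds newly forming droplets from the cytosol in most cell types. It read 6.01, 5.69 and 5.22 in the DIO livers, and 5.61, 5.61, 5.61 and 5.57 in the BMJ + DIO livers. The untreated livers thus lay on both sides of 4 nearly equal treated ones. The means were 5.64 ± 0.39 in DIO and 5.60 ± 0.02 in BMJ + DIO, with a difference of -0.04 and an interval of -0.48 to 0.39 (limma, adjusted p = 0.912). Without DIO replicate 3 the difference was -0.25, from both remaining untreated livers lying above all 4 treated ones.

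Plin4 (ENSMUSG00000002831), which is most abundant in adipose tissue and coats nascent droplets, read 6.53, 6.44 and 5.55 in DIO. In BMJ + DIO it read 6.23, 6.44, 6.66 and 6.42. DIO replicates 1 and 2 lay within the range of the treated livers and DIO replicate 3 below it. The mean difference of 0.26 (standard error 0.26; 1.20-fold, interval 0.773-fold to 1.86-fold; limma, adjusted p = 0.625) was -0.05 once DIO replicate 3 was omitted and 0.06 with cyclic loess.

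Plin5 (ENSMUSG00000011305) ties droplets to mitochondria in tissues that burn fat and holds back lipolysis by binding the lipase and its coactivator. Its values were 6.17, 6.14 and 5.76 in DIO and 6.17, 6.17, 6.84 and 6.26 in BMJ + DIO. A single treated liver, replicate 3, lay 0.58 above every other array, and the remaining treated livers sat beside DIO replicate 1. The difference of 0.34 (standard error 0.20; 1.26-fold, interval 0.896-fold to 1.78-fold; limma, adjusted p = 0.571) was positive in all 15 alternative fits. Not all of these fits could change it, since other filters and a trended and robust variance leave it at 0.34 by construction. The replicate number as a block gave the same 0.37 as leaving out BMJ + DIO replicate 4. The difference was 0.18 without BMJ + DIO replicate 3 and 0.21 without DIO replicate 3. Plin4 and Plin5 are neighbours in the genome (chr17:56100587-56109948 and chr17:56111597-56117606, GRCm38.p6), with 1648 bases and no annotated gene between them. They shared their highest array, BMJ + DIO replicate 3, where Plin4 exceeded the next highest array by 0.13 and Plin5 by 0.58 on the deposited values. After cyclic loess the gap was 0.0053 for Plin4 and 0.49 for Plin5. Plin3 (chr17:56278962-56290511) lies 161355 bases from Plin5 and had the same value in that animal as in 2 other treated ones.

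The RefSeq windows from 250 bases before to 50 bases after annotated start sites (GRCm38.p6) were searched for 3 motifs. AGGTCA is the core hexamer of many nuclear receptor elements. The DR1 motif, to which PPAR receptors bind, is AGGTCA in direct repeat with any 1 base between the copies, so each DR1 also counts as a match of the hexamer. An E-box was searched as CACGTG. Both strands were read, and 9 of the 10 genes had a window (11 windows in all, Plin5 and Cidec having 2 each). AGGTCA occurred in 4 of the 11 windows (Plin2, Hsd17b13 and both of Plin5), against 16.3% of all 32851 windows. CACGTG occurred in 1 of the 11, that of Plin2, against 7.15% of all windows. The DR1 motif, without mismatches, occurred in 0 of the 11 and in 0.0396% of all windows. These are matches of letters only, and the windows are too short to hold distant elements.

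The windows of Plin2 and Plin5 are shown because they hold the matches among the perilipins, with the matches in capitals and the rest in lower case, 5′ to 3′ on the strand of the gene. That of Plin2 (chr4:86670010-86670309, minus strand) holds AGGTCA on the opposite strand, which reads TGACCT here, starting 218 bases before the start site, and CACGTG starting 4 bases before it. The upstream window of Plin5 (chr17:56117499-56117798, minus strand) holds AGGTCA on its own strand, starting 170 bases before the start site.
Plin2: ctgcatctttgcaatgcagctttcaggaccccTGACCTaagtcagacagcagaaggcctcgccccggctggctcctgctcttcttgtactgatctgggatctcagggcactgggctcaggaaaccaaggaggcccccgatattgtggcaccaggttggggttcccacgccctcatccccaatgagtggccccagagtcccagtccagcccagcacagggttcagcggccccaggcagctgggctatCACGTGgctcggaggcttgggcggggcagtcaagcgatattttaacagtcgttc
Plin5: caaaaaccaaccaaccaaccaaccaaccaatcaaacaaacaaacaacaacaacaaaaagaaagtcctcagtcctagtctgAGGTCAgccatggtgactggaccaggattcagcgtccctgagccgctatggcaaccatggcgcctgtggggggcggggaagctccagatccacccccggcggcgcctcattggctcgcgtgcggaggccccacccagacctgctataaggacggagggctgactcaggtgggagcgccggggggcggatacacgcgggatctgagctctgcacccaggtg

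Cidea (ENSMUSG00000024526) and Cidec (ENSMUSG00000030278, chr6:113424634-113435760) had the widest ranges over the 7 animals, 2.25 and 1.97 log2 units, and the groups overlapped. Cidea, a droplet fusion protein of brown fat that appears in fatty mouse liver, read 5.25, 5.25 and 4.59 in DIO. In BMJ + DIO it read 5.25, 6.85, 5.29 and 4.89. BMJ + DIO replicate 2 was 1.55 log2 units above every other array, and the remaining treated livers lay within the range of the untreated ones or barely above it. The means were 5.03 ± 0.38 (SD, n = 3) and 5.57 ± 0.87 (SD, n = 4), a difference of 0.54 (standard error 0.50), 1.45-fold with an interval from 0.627-fold to 3.37-fold (limma, adjusted p = 0.610). Without BMJ + DIO replicate 2 the difference was 0.12, and without DIO replicate 3 it was 0.32.

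Cidec, also known as Fsp27 and the CIDE protein that makes the large single droplet of white fat cells, was highest and lowest in the same animals. It read 7.06, 7.39 and 6.15 in DIO and 7.36, 8.12, 7.17 and 6.55 in BMJ + DIO. Again BMJ + DIO replicate 2 was highest, by 0.74 over the next array, while BMJ + DIO replicate 4 and DIO replicate 3 were the lowest of their groups. The group means were 6.87 ± 0.64 and 7.30 ± 0.65. The difference of 0.43 (standard error 0.45) was 1.35-fold, with an interval from 0.630-fold to 2.89-fold (limma, adjusted p = 0.641). It was 0.16 without BMJ + DIO replicate 2 and 0.07 without DIO replicate 3. The intervals of both genes reach past 2-fold upward, so a difference of that size is not excluded by these arrays.

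Likeness between genes was measured as the mean absolute difference of their mean-centred log2 values over the 7 arrays, with small values meaning alike profiles. Cidec was the nearest neighbour of Cidea among the 10 at 0.238, and ranked 4 among all 20054 other tested IDs. It was again the nearest of the 10 after cyclic loess (0.206, rank 3) and without DIO replicate 3 (0.230, rank 6). The 2 nearest IDs, for which no gene name was at hand, were ENSMUSG00000084253 (0.157) and ENSMUSG00000087232 (0.215). ENSMUSG00000084253 read 6.33 in BMJ + DIO replicate 2 against 4.75 to 5.46 elsewhere, and ENSMUSG00000087232 read 5.45 there against 4.13 to 4.44. The closeness of Cidec to Cidea rests on that animal: over the other 6 arrays Cidec ranked 4016, with 20.0% of IDs at least as near, while Hsd17b13 ranked 36 and Plin2 ranked 69.

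Cideb (ENSMUSG00000022219, chr14:55754052-55758424) is the CIDE gene of normal hepatocytes, where its protein loads lipid onto nascent very low density lipoprotein. It read 9.36, 9.23 and 8.51 in DIO and 9.06, 9.10, 9.14 and 9.01 in BMJ + DIO. The treated livers were within 0.12 of each other, and the untreated ones lay above them in replicates 1 and 2 and below them in replicate 3. After cyclic loess DIO replicate 3 read 9.10 and all 3 untreated livers lay above all 4 treated ones. Cideb was then the 1 gene of 10 whose groups did not overlap, against 10.4% of all IDs tested. On all arrays, as deposited, the difference was 0.04 with an interval of -0.46 to 0.54 (limma, adjusted p = 0.931). Without DIO replicate 3 it was -0.22 with an interval of -0.36 to -0.07, and after cyclic loess on all 7 arrays it was -0.22 with an interval of -0.40 to -0.05. Neither passed the adjusted threshold (limma, adjusted p = 0.858 and 0.534). The profile nearest to Cideb among the 10 was that of Plin3, at 0.0684, the smallest such value within the family. It was 0.0711 after cyclic loess and 0.0517 without DIO replicate 3. Among all 20054 other tested IDs Plin3 ranked 141, 214 and 116 in these settings, so many other IDs were nearer to Cideb.

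**Figure D2:**
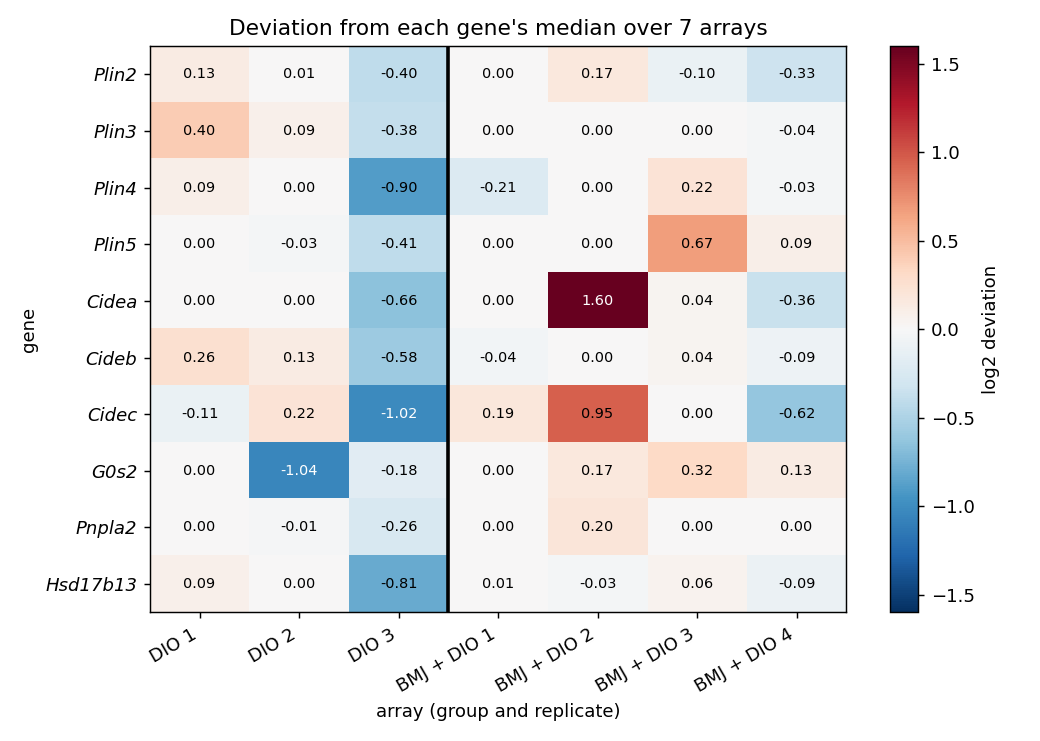
Log2 deviation of each gene (rows) from its own median over 7 arrays, for each array (columns, DIO left of the line, BMJ + DIO right of it), with red above and blue below the median. DIO replicate 3 is below the median for all 10 genes, BMJ + DIO replicate 2 stands out for Cidea and Cidec, BMJ + DIO replicate 3 for Plin5, and DIO replicate 2 for G0s2.

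G0s2 (ENSMUSG00000009633, chr1:193272160-193273188) encodes a small protein that binds and inhibits adipose triglyceride lipase, and on the deposited values it had the largest mean difference of the 10 genes. That rank passed to Cidea after cyclic loess (0.41 against 0.36 for G0s2) and after quantile normalization (0.46 against 0.37). Cidea was also first without BMJ + DIO replicate 1 (0.65 against 0.61), replicate 3 (0.63 against 0.51) or replicate 4 (0.77 against 0.57). The fit with the replicate number as a block drops BMJ + DIO replicate 4 from the contrast. It gave the same differences as leaving that array out and is not a separate result. Cidec was first without DIO replicate 2 (0.69 against 0.24). G0s2 read 6.36, 5.32 and 6.18 in DIO and 6.36, 6.53, 6.69 and 6.50 in BMJ + DIO. All treated livers were at or above the highest untreated one, with BMJ + DIO replicate 1 and DIO replicate 1 at the same deposited value. After cyclic loess this order was lost, as DIO replicate 3 was then the highest of the 7 arrays at 6.62, against 6.34 to 6.53 in the treated livers. The deposited means were 5.96 ± 0.56 (SD, n = 3) and 6.52 ± 0.13 (SD, n = 4), and DIO replicate 2 was 0.86 below every other array. The difference was 0.56 with a standard error of 0.26, 1.48-fold with an interval from 0.956-fold to 2.28-fold (limma, adjusted p = 0.571). By an exact two-sided permutation test 2 of the 35 divisions of the 7 mice were as extreme (p = 0.0571, smallest possible p = 0.0286). After cyclic loess 11 of 35 divisions were as extreme (exact permutation p = 0.314), and without DIO replicate 3 it was 2 of 15 (exact permutation p = 0.133, smallest possible p = 0.0667).

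G0s2 was the sole member not lowest on DIO replicate 3, and without that array its difference was 0.68. The array that moved it most was DIO replicate 2, without which the difference was 0.24, or 1.19-fold, with an interval of -0.03 to 0.52. The difference was above 0 in all 15 alternative fits, with a range of 0.24 to 0.76. Not all of these fits could change it. Other filters and a trended and robust variance leave it at 0.56 by construction. The replicate number as a block gave the same 0.57 as leaving out BMJ + DIO replicate 4. The promoter window of G0s2 (chr1:193273139-193273438, minus strand) is shown because the gene had the lowest unadjusted p of the 10 on the deposited values, and none of the 3 motifs occurs in it, so no letter is in capitals.
G0s2: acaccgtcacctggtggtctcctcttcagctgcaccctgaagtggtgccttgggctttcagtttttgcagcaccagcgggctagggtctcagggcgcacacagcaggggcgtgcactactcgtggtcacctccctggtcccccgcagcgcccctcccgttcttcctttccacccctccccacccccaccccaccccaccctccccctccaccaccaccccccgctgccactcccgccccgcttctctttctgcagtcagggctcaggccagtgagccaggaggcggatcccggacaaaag

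Pnpla2 (ENSMUSG00000025509, chr7:141455188-141460743), the gene of the lipase that the G0s2 protein inhibits, had the smallest standard error of the 10 on the deposited values. It read 5.86, 5.84 and 5.60 in DIO and 5.86, 6.05, 5.86 and 5.86 in BMJ + DIO. DIO replicate 1 and 3 of the treated livers held the same deposited value, and only DIO replicate 3 and BMJ + DIO replicate 2 lay away from it. The difference was 0.14 with a standard error of 0.09 (limma, adjusted p = 0.571). The difference was 1.10-fold, with an interval from 0.949-fold to 1.28-fold. The difference was 0.06 without DIO replicate 3 and -0.03 after cyclic loess. After cyclic loess the standard error of Pnpla2 was 0.096, no longer the smallest, with that of Cideb at 0.074.

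Hsd17b13 (ENSMUSG00000034528, chr5:103955442-103977388) encodes an enzyme of hepatocyte lipid droplets that can act on retinol. It read 9.026, 8.940 and 8.129 in DIO and 8.950, 8.906, 8.995 and 8.849 in BMJ + DIO. All arrays except DIO replicate 3 lay within a narrow band, and the SD was 0.49 in DIO and 0.06 in BMJ + DIO. The difference of 0.23 (interval -0.32 to 0.77; limma, adjusted p = 0.623) was -0.06 without DIO replicate 3, with an interval of -0.19 to 0.08, and -0.03 after cyclic loess.

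**Figure D3:**
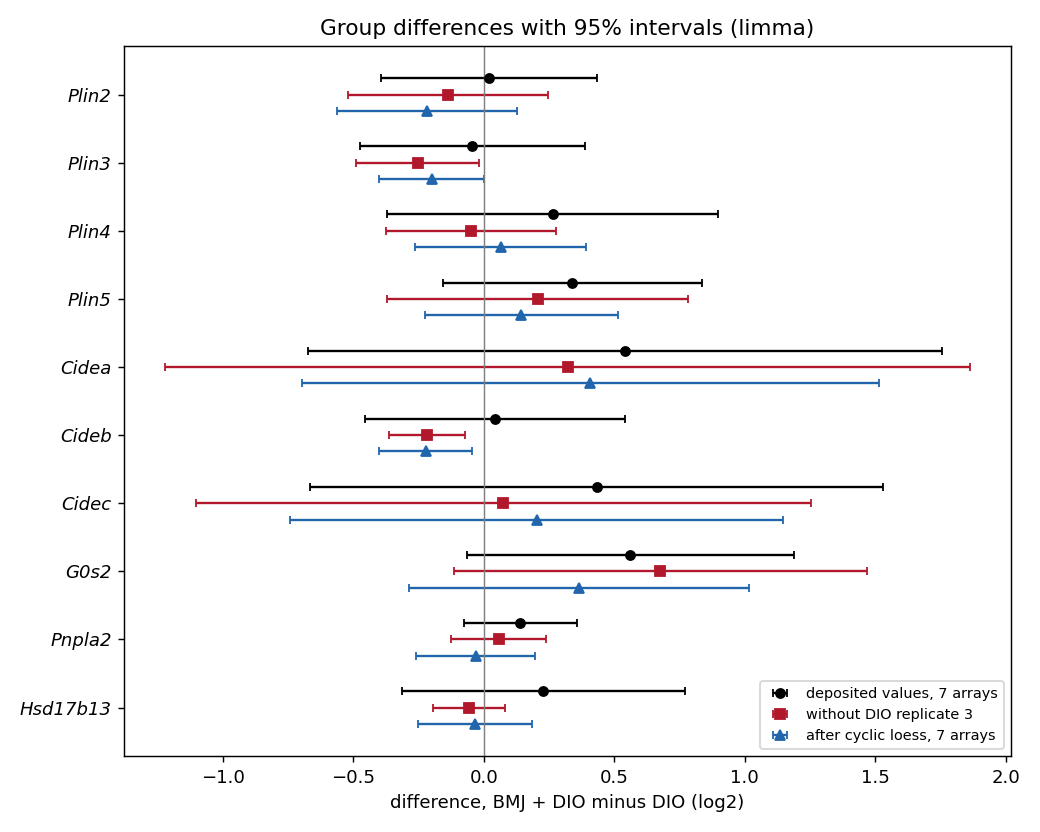
Difference between the groups (BMJ + DIO minus DIO, log2, horizontal axis) for each lipid droplet gene (vertical axis), with 95% intervals from limma. Circles use the deposited values of 7 arrays, squares leave out DIO replicate 3 and triangles follow cyclic loess. Every interval on the deposited values spans 0, while Plin3 and Cideb lie below 0 without DIO replicate 3 and Cideb also after cyclic loess.

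As a family, 9 of the 10 genes had a higher mean in BMJ + DIO and 1, Plin3, a lower one. The background for that count is 56.3% of all tested IDs with a higher mean, and 80.9% of the 6624 brighter IDs. The median of the 10 differences was 0.25 on the log2 scale, against 0.02 over all tested IDs and 0.18 over the 6624 brighter ones. The share and the median of the family therefore lay near those of other bright IDs. Without DIO replicate 3, 5 genes had a higher and 5 a lower mean (47.4% of all IDs higher), and the median was 0.00. After cyclic loess the split was again 5 and 5 (48.4% of all IDs higher), with a median of 0.02.

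At an unadjusted p under 0.05 few members appeared once DIO replicate 3 was left out or the arrays were normalized again. Without that array they were Plin3 and Cideb, both lower in the treated livers (2 of 10, against 3.25% of all IDs). The same 2 genes were those whose groups did not overlap among the 6 arrays, against 6.69% of all IDs. After cyclic loess it was Cideb, also lower (1 of 10, against 8.98%). After quantile normalization it was 0 of 10, against 8.82%, with Plin3 at -0.18 and Cideb at -0.19. With both steps together, an alternative chosen after seeing the data, they were Plin3 at -0.28 and Cideb at -0.27, and G0s2 at 0.64 (3 of 10, against 6.82%). In that fit 5 of 10 had a higher mean, against 49.3% of all IDs. None passed the adjusted threshold in any of these fits. The lowest adjusted p of a member (limma) was 0.858 without DIO replicate 3 and 0.534 after cyclic loess. It was 0.5385 after quantile normalization and 0.624 after cyclic loess without DIO replicate 3.

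Averaged over the 10 genes, the deviation from the 7-array median was 0.09, -0.06 and -0.56 in DIO replicates 1 to 3. It was -0.01, 0.30, 0.13 and -0.13 in BMJ + DIO replicates 1 to 4. The group means of these values were -0.18 ± 0.34 (SD, n = 3) and 0.07 ± 0.19 (SD, n = 4), and the groups overlapped. The value of DIO replicate 3 compares with -0.47 for all 6624 brighter IDs on the same array, and after cyclic loess it was -0.05. That of BMJ + DIO replicate 2 compares with 0.00 for the brighter IDs and was 0.31 after cyclic loess. The deposited value came mainly from Cidea and Cidec, each at least 0.95 above its median in that animal. Every other gene there was within 0.20 of its median. This animal had the highest value for 4 genes on the deposited values, Plin2, Cidea, Cidec and Pnpla2, and for 3 after cyclic loess, where Plin2 was highest in DIO replicate 3. BMJ + DIO replicate 4, another treated liver, had the lowest family mean after cyclic loess, at -0.19. It then held the lowest value of 6 of the 10 genes, but of 0 on the deposited values. No share of all IDs is given for these counts on BMJ + DIO replicates 2 and 4, nor a background for the cyclic loess means. Whether they belong to these genes or to the arrays was not tested.

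**Figure D4:**
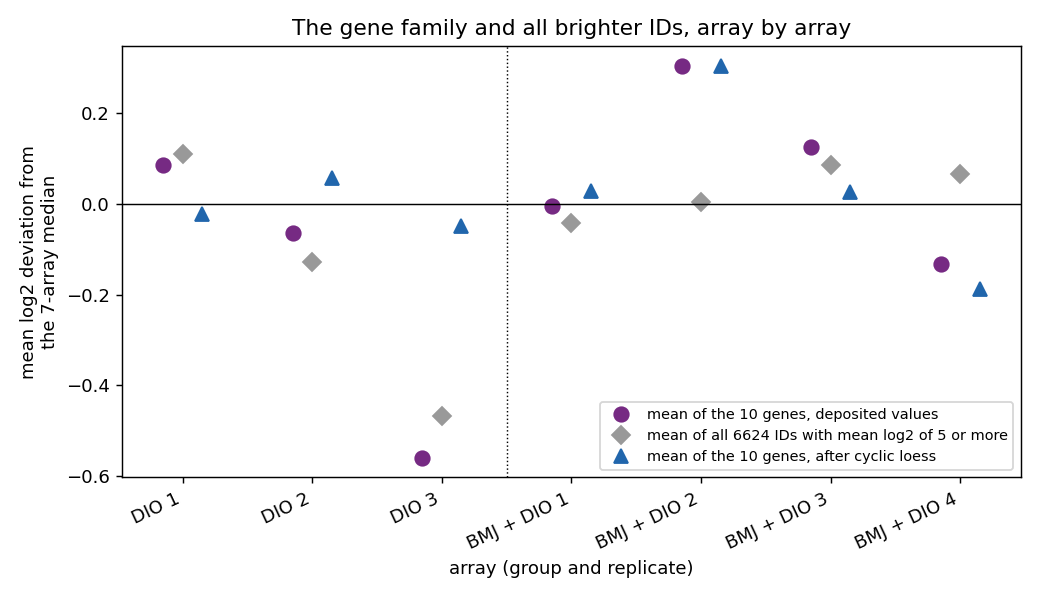
Mean log2 deviation from the 7-array median (vertical axis) on each array (horizontal axis), for the 10 lipid droplet genes (circles), for the 6624 tested IDs averaging at least log2 5 (diamonds), and for the 10 genes after cyclic loess (triangles). The low mean of the 10 genes on DIO replicate 3, -0.56, is accompanied by -0.47 for the brighter IDs. The 0.30 on BMJ + DIO replicate 2 is accompanied by 0.00 for the brighter IDs and came mainly from Cidea and Cidec.

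Whether other cell types changed beside these genes was not examined. The values carry Ensembl IDs alone, and the reference gene table lists 0 Ensembl IDs, so the lists of hepatocyte, adipocyte, macrophage and other markers, of further droplet proteins and lipases, and of the PPAR genes could not be matched to IDs. The labelled tissue could not be checked against its markers for the same reason.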

How the data were processed

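Liver RNA of 7 mice, 1 array each, was fragmented and labelled with biotin for Affymetrix arrays, per the labels' protocols. The deposited values are log2 expression per Ensembl gene ID, made by the authors with Affymetrix Power Tools and RMA (background correction, normalization across arrays and summary per gene), with the GRCm38 (mm10) genome, per the submitters' processing notes. Versions, array type, filters and detection calls are not stated there or in the labels. Groups and replicate numbers came from the sample titles, which call the animals biological replicates. Of the 10 genes, 6 hold exactly the same value on at least 2 arrays. Scan dates and other batches were not analysed here.

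The 40% of 33426 IDs with the lowest mean over the 7 arrays (13371 IDs, mean log2 up to 2.74) were left out. The other 20055 were fitted with limma 3.58.1 in R 4.3.3 (lmFit and eBayes, group alone as a term, 5 residual and 1.05 prior degrees of freedom, two-sided, Benjamini-Hochberg over all 20055). Single genes were also compared by exact permutation over 35 divisions. The fit was tested on simulated data. All 10 genes are named, with symbols as paired with their IDs in the choice of members. The genes and lists were chosen with earlier results of these data known. Promoter windows and coordinates are RefSeq's (GRCm38.p6), matched by symbol. Alternatives were other filters on dim IDs, quantile normalization, cyclic loess, median centring, a trended and robust variance, the replicate number as a block, an adjusted threshold of 0.10, leaving out each array, and, added after seeing the data, cyclic loess without DIO replicate 3, and likeness, overlap and single permutation tests after cyclic loess or without single arrays. Equal replicate numbers are not said to pair animals.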

Additional observations from a re-analysis of the deposited data

Results flagged for a closer look

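Within the 4 BMJ + DIO livers, 3 of the 10 genes had 1 animal set apart from the rest, judged by the gap to its nearest neighbour divided by the range of the group (Dixon's ratio, 95% critical value). The same ratio marked 24.7% of all 20055 tested IDs, so 3 of 10 is near the background. Chance marks about 1 in 20 such groups, exactly repeated values make the ratio high by construction, and among the 10858 IDs with 4 distinct treated values the share was 4.88%. After cyclic loess Plin5 alone of the 10 was marked, against 9.79% of all IDs tested. For Plin5 the ratio was 0.867, with BMJ + DIO replicate 3 at 6.84 and the next animal at 6.26. For Pnpla2 it was 1.0, since replicate 2 read 6.05 and the other 3 held the same value of 5.86. For Plin3 it was also 1.0, since replicate 4 read 5.57 and the other 3 held 5.61, a gap of 0.04 log2 units. The high value of Cidea in BMJ + DIO replicate 2 did not pass this criterion.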

How the results depend on the processing

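No member passed the adjusted p of 0.05 in limma under any of the 15 alternatives, nor an adjusted p of 0.10 on the deposited values. The count of members past an unadjusted p of 0.05 went from 0 to 1 after cyclic loess (Cideb, against 8.98% of all IDs) and median centring (G0s2, 0.61, against 6.3%). It was also 1 with the replicate block (Cidec, 0.68, limma adjusted p = 0.856, against 2.24%). Leaving out 1 array gave 0 to 2. These were Plin3 and Cideb without DIO replicate 3 (against 3.25%) and G0s2 without DIO replicate 1 (against 29.0%). The count was 3 after cyclic loess without DIO replicate 3 (against 6.82%). The count of members higher in BMJ + DIO went from 9 to 5 after quantile normalization, cyclic loess or both cyclic loess and omission of DIO replicate 3, and ran from 5 to 10 when 1 array was left out. The median member difference ran from 0.003 to 0.40 when 1 array was left out. The 1285 of all tested IDs past an unadjusted p of 0.05 became 1942 with no filter (more IDs tested), 449 with the replicate block, and 550 to 5823 without 1 array (lowest without DIO replicate 2, highest without DIO replicate 1). Plin5, Cidea, Cidec and G0s2 kept a positive difference in all 15 fits. Among these, the filters and the trended and robust variance cannot change a difference. The replicate block gave all 10 genes the same differences as leaving out BMJ + DIO replicate 4. No share of all IDs that kept their direction was computed. Directions turned as follows. After quantile normalization Plin2 was -0.19, Cideb -0.19, Pnpla2 -0.0285 and Hsd17b13 -0.0082. After cyclic loess they were -0.22, -0.22, -0.0322 and -0.0345. With median centring Plin3 was 0.0027. With cyclic loess and no DIO replicate 3, Plin2 was -0.18, Plin4 -0.0874, Cideb -0.27 and Hsd17b13 -0.11. When 1 array was left out, Plin2 ran from -0.14 to 0.13, Plin3 from -0.25 to 0.14, Plin4 from -0.0503 to 0.44, Cideb from -0.22 to 0.205 and Hsd17b13 from -0.0576 to 0.39. Without DIO replicate 1 all 10, Plin3 included, were above 0, against 56.9% of all IDs. Plin2 also turned without BMJ + DIO replicate 1 or 2. Apart from the filter, the cause was not tested. Same-numbered animals of the 2 groups correlated at -0.355, -0.09 and -0.296 in their deviations from the group means, and with the replicate block, which also drops BMJ + DIO replicate 4 from the contrast, no adjusted call was made. Lists of further genes and cell type markers were not run, since no ID could be named, and no detection calls were used.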
